A study of Homo sapiens with 4 samples.

Results

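SQSTM1 and 9 further genes of autophagy were followed in MV4-11 cells with and without knockdown of CEBPG. They encode receptors that carry cargo to the autophagosome, ATG8 proteins of its membrane and the kinase ULK1. The 10 genes were SQSTM1, NBR1, OPTN, CALCOCO2, TAX1BP1, GABARAP, GABARAPL1, GABARAPL2, MAP1LC3B and ULK1, out of 16490 genes with values. They were chosen by gene symbol with earlier results of the same contrast in view, so their values in this contrast are a description and carry no test. All 22 of their RefSeq transcripts were taken, out of 28581 with values, and the values of each gene's transcripts were summed in each library.

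MV4-11 is an established human acute myeloid leukaemia cell line. There were 2 libraries of cells carrying the control hairpin sh-NC and 2 of cells carrying sh-CEBPG#3, which targets the bZIP transcription factor CEBPG. The paper built its CEBPG hairpins in the lentiviral vector pLKO.1-puro and selected infected cells with puromycin. It does not name the vector of sh-NC. If sh-NC was handled alike, all 4 libraries share the infection and the selection. The knockdown rests on 1 hairpin. Whether the 2 libraries of each group stem from separate infections or cultures is not given in the sources used here, and the p-values then measure only the spread between these samples, which may be technical. Values are FPKM (fragments scaled to transcript length and to the mapped total), a level per length that can be compared between genes.

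In selective autophagy, receptors bind ubiquitin-tagged cargo with one region and lipidated proteins of the ATG8 family on the growing membrane with another, and are broken down in the lysosome with the cargo. SQSTM1, also called p62, is the best-known receptor. It also binds KEAP1 and so bears on the activity of NFE2L2, a transcription factor of the oxidative stress response. Because the SQSTM1 protein is itself degraded by autophagy, its mRNA and protein can move apart, and only mRNA was measured here.

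CEBPG, the targeted gene, stood at 30.4 and 33.5 FPKM under sh-NC and at 19.2 and 17.1 FPKM under sh-CEBPG#3. Its level under sh-CEBPG#3 was 56.8% of that under sh-NC (log2 fold change -0.78, SE 0.09, limma adjusted p = 8.88e-05). The libraries correlated at r = 0.9934 within sh-NC, 0.9936 within sh-CEBPG#3 and 0.9624 to 0.9639 between the groups, over log2(FPKM + 1) of genes, which are not independent replicates. All 6 myelomonocytic markers of the line were listed, and their summed level was 254.5 to 279.4 FPKM in sh-NC and 276.1 to 302.5 FPKM in sh-CEBPG#3. That sum held 2 genes that rose, CD33 and SPI1, and 2 that fell, MEIS1 and HOXA9. MEIS1 fell to 48.0% of its sh-NC level (log2 fold change -0.87, limma adjusted p = 8.31e-05). HOXA9 had a log2 fold change of -0.36 (limma adjusted p = 0.0167). FLT3 and PTPRC passed in neither direction (log2 fold change -0.14 and 0.21, limma adjusted p = 0.161 and 0.123). Of all genes tested 18.5% were called higher and 23.8% lower at an adjusted p under 0.05, and nothing is read from the marker counts. Of 7 monocyte and macrophage markers 6 were listed, with a summed level of 73.8 to 86.7 FPKM in sh-NC and 149 to 160.7 FPKM in sh-CEBPG#3. Of the 4 that could be tested 3 rose (CSF1R, FCGR1A and CD68), and ITGAM passed in neither direction (log2 fold change 0.09, limma adjusted p = 0.451). The remaining 2 were below the filter and had no test, CD14 at 0.187 and 0 FPKM in sh-NC and 1.09 and 0.697 FPKM in sh-CEBPG#3, and CD163 at 0 and 0.0121 against 0.244 and 0.191 FPKM. The part of these markers in the results that follow was not tested. In bulk RNA a change in the number of cells of a type and a change in RNA per cell cannot be told apart.

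SQSTM1 was the member with the largest difference. Its level was 40.1 and 41.4 FPKM under sh-NC and 136 and 131 FPKM under sh-CEBPG#3. The groups were far apart beside a spread of 0.931 FPKM (SD, n = 2) in sh-NC and 3.61 FPKM (SD, n = 2) in sh-CEBPG#3. The ratio of the means was 3.27, and the log2 fold change on the log2(FPKM + 1) scale was 1.69 (SE 0.07, 95% interval 1.53 to 1.84). Ranked by that change, SQSTM1 was number 87 of the 12142 genes tested.

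The SQSTM1 gene spans 179806393 to 179838078 on chromosome 5, plus strand (GRCh38). Its MANE Select transcript starts at 179820905 and has 8 exons, 2840 nt and a coding sequence of 1320 nt. RefSeq also places starts upstream, at 179806393 and 179807009, which lie 14512 and 13896 bases before the MANE Select start. The 250 bases before each of the 3 starts are printed because the transcripts of SQSTM1 moved apart. They come from RefSeq, GRCh38.p14, plus strand, 5′ to 3′, and capitals would mark a motif match, of which these 3 windows have none.

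SQSTM1 start 1, chr5:179806143-179806392: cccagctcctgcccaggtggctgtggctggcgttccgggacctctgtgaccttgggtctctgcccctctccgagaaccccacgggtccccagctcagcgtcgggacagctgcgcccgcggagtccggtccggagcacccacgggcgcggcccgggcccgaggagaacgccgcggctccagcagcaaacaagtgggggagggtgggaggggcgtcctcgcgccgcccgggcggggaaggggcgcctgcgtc
SQSTM1 start 2, chr5:179806759-179807008: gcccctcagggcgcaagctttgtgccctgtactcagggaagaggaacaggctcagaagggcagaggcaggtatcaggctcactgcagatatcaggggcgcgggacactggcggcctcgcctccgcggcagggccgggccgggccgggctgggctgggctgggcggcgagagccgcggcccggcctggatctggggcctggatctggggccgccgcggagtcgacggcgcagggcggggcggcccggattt
SQSTM1 start 3, MANE Select, chr5:179820655-179820904: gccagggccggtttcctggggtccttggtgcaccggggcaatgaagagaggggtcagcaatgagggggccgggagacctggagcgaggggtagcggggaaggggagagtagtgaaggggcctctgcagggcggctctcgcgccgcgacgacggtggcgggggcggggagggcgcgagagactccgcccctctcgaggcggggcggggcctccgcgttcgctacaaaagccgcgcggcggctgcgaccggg

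The difference in SQSTM1 was carried by 1 of its 3 transcripts. NM_003900, which encodes the full-length receptor, was at 32.9 and 33.8 FPKM in sh-NC and at 131.7 and 127.5 FPKM in sh-CEBPG#3, a ratio of means of 3.89. NM_001142299 went the other way, with 6.31 and 6.08 FPKM in sh-NC against 2.97 and 1.05 FPKM in sh-CEBPG#3. NM_001142298 overlapped between the groups, at 0.912 and 1.51 against 1.40 and 2.33 FPKM. Both NM_001142299 and NM_001142298 encode a shorter product that begins further downstream in the protein.

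NM_003900 thus made up 81.8% ± 0.230 of SQSTM1 in sh-NC and 97.1% ± 0.448 in sh-CEBPG#3 (SD, n = 2). The share of NM_001142299 was 15.7% and 14.7% in sh-NC and 2.18% and 0.805% in sh-CEBPG#3. Values of transcripts that share exons are estimates of how reads divide among them. MGAT4B, a glycosyltransferase gene on the opposite strand beside the upstream starts, was at 31.0 and 34.7 FPKM in sh-NC and at 49.8 and 45.9 FPKM in sh-CEBPG#3, and rose (log2 fold change 0.53, limma adjusted p = 0.000721). Of the 7535 exonic bases of SQSTM1 in GENCODE, 105 also lie in exons of MGAT4B. Unless the library kit marked strand, reads from those bases cannot be told apart.

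The other ubiquitin-binding receptors did not move as 1 group. OPTN, optineurin, which takes part in the removal of mitochondria and of bacteria, was at 3.04 and 3.61 FPKM in sh-NC and at 9.34 and 9.64 FPKM in sh-CEBPG#3. Every sh-CEBPG#3 library was thus above both sh-NC libraries, with a ratio of means of 2.85 and a log2 fold change of 1.28 (SE 0.10), number 165 of the genes tested. OPTN lies on chromosome 10 from 13100082 to 13138308.

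Its first RefSeq window is printed because a match to the kappa-B motif, that of the NF-kappa-B family, was found close to the start. The match begins 12 and 11 bases before that start, at 13100082. The MANE Select start is at 13100163, and the same letters begin 93 and 92 bases before it. The capitals mark 2 overlapping matches.

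OPTN start 1, chr10:13099832-13100081: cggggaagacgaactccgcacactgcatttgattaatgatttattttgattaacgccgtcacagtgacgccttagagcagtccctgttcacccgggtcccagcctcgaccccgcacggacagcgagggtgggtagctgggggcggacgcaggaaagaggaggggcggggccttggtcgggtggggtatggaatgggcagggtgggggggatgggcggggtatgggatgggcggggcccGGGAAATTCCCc

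For each of the 4 OPTN transcripts the sh-CEBPG#3 values lay above the sh-NC values, but the transcripts divided unevenly between libraries of a group. NM_021980 was at 1.88 and 3.52 against 4.67 and 6.96 FPKM, and NM_001008212 at 1.15 and 0 against 2.39 and 1.55 FPKM. NM_001008211 was at 0.00839 and 0.0943 against 1.55 and 0.270 FPKM, and NM_001008213 was listed at 0 in both sh-NC libraries against 0.730 and 0.859 FPKM. The sum over transcripts was steadier between libraries of a group than its parts.

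NBR1, a receptor that shares the domain plan of SQSTM1 and clusters with it, was at 6.66 and 7.04 FPKM in sh-NC and at 8.21 and 7.25 FPKM in sh-CEBPG#3. The groups did not overlap, but the log2 fold change was 0.15 with a 95% interval of -0.06 to 0.36. Part of the higher value in the first sh-CEBPG#3 library came from NM_031862, at 0.666 FPKM there and at or below 0.0583 FPKM in the other libraries.

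CALCOCO2, also called NDP52, which directs autophagy to invading bacteria, was at 18.5 and 21.6 FPKM in sh-NC and at 21.2 and 19.6 FPKM in sh-CEBPG#3. The groups overlapped, and the 95% interval of the log2 fold change ran from -0.18 to 0.23. TAX1BP1, a receptor of the same family, was at 29.4 and 31.5 against 32.7 and 31.3 FPKM, which also overlapped (95% interval -0.10 to 0.24). Within TAX1BP1, NM_001206902 stood at 1.71 and 1.49 FPKM in sh-NC and was listed at 0 in both sh-CEBPG#3 libraries, while NM_001079864 was at 19.8 and 17.4 against 21.8 and 22.6 FPKM.

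The make-up of the 5 receptors therefore differed between the groups. Their summed level was 97.7 and 105.2 FPKM in sh-NC and 207.5 and 198.7 FPKM in sh-CEBPG#3. SQSTM1 made up 41.0% and 39.4% of that sum in sh-NC and 65.5% and 65.9% in sh-CEBPG#3.

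**Figure D1:**
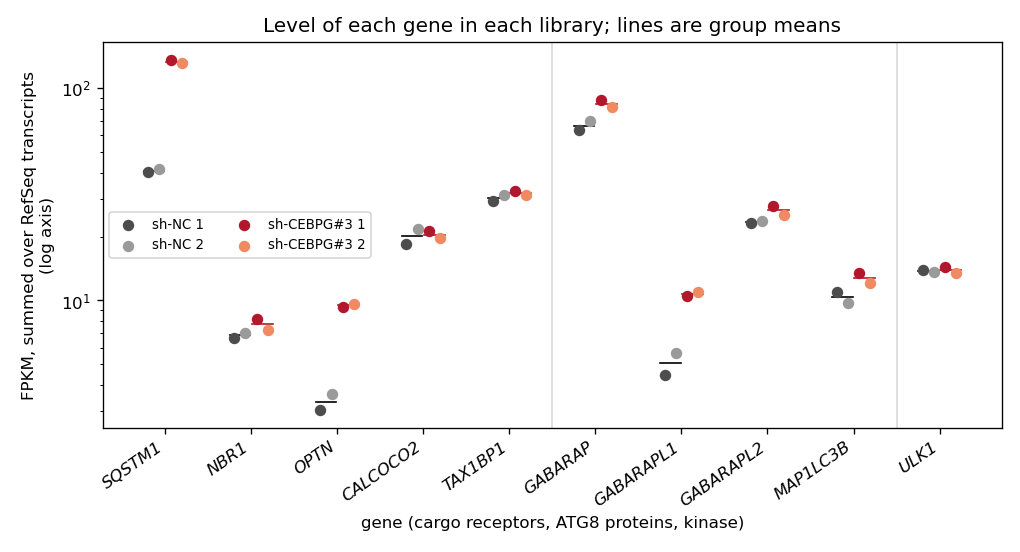
FPKM on a log axis for each of the 10 genes, with 1 point per library and the mean of each group as a line, for 2 sh-NC and 2 sh-CEBPG#3 libraries. SQSTM1, OPTN and GABARAPL1 show the widest gaps, and the points of CALCOCO2, TAX1BP1 and ULK1 overlap between the groups.

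The ATG8 proteins, the membrane anchors to which the receptors bind, had higher means in sh-CEBPG#3 in the 4 members measured, by unequal amounts. GABARAPL1 was at 4.47 and 5.67 FPKM in sh-NC and at 10.5 and 10.9 FPKM in sh-CEBPG#3. Its ratio of means was 2.11 and its log2 fold change 0.95 (SE 0.11, 95% interval 0.71 to 1.19), number 322 of the genes tested. GABARAPL1 lies on chromosome 12 from 10212877 to 10223128. Its window is printed because it holds a match to the cyclic AMP response element, in capitals, 30 bases before the start. Such a match is in 1.65% of all windows, and whether it acts on the gene was not tested. Matches to other motifs in GABARAPL2, CALCOCO2 and MAP1LC3B are given below without their windows.

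GABARAPL1, chr12:10212627-10212876: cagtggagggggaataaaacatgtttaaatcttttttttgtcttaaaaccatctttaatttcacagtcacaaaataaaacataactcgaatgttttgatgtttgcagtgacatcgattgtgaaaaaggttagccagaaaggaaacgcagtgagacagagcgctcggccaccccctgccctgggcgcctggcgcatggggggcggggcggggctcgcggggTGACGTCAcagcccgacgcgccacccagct

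GABARAP, the founding gene of that subfamily, had the highest level of the ATG8 members, at 63.6 and 69.7 FPKM in sh-NC and 87.6 and 81.5 FPKM in sh-CEBPG#3 (ratio of means 1.27, log2 fold change 0.34, 95% interval 0.17 to 0.51). MAP1LC3B, the LC3 protein commonly used to mark autophagosomes, was at 10.9 and 9.72 against 13.5 and 12.1 FPKM (log2 fold change 0.29, 95% interval 0.08 to 0.50). GABARAPL2 was at 23.1 and 23.6 against 27.9 and 25.3 FPKM (ratio of means 1.14, log2 fold change 0.18), and the lower end of its 95% interval was at 0.000. The groups did not overlap in any of the 4, where 31.5% of all genes tested were higher without overlap, and nothing is read from that count. GABARAPL1 had the lowest sh-NC level of the 4. MAP1LC3B has a near-identical copy, MAP1LC3B2, at a mean of 3.30 FPKM in sh-NC and 3.51 FPKM in sh-CEBPG#3, and reads could have been split between the pair.

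ULK1, the kinase that starts autophagosome formation, was at 13.9 and 13.6 FPKM in sh-NC and at 14.4 and 13.4 FPKM in sh-CEBPG#3. The groups overlapped, and the 95% interval of its log2 fold change ran from -0.17 to 0.20.

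By mean level per length in sh-NC the order was GABARAP, SQSTM1, TAX1BP1, GABARAPL2, CALCOCO2, ULK1, MAP1LC3B, NBR1, GABARAPL1 and OPTN, and the libraries of neighbouring genes did not overlap. In sh-CEBPG#3 the order was SQSTM1, GABARAP, TAX1BP1, GABARAPL2, CALCOCO2, ULK1, MAP1LC3B, GABARAPL1, OPTN and NBR1. There ULK1 and MAP1LC3B, at means of 13.9 and 12.8 FPKM, had overlapping libraries.

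Of the 10 genes, 5 had an adjusted p under 0.05 in the fit across all genes and a higher level in sh-CEBPG#3 (SQSTM1, OPTN, GABARAP, GABARAPL1 and MAP1LC3B) and 0 a lower one, where 18.5% of all genes tested were called higher and 23.8% lower. At the study's threshold, a log2 fold change beyond 1 in size with p under 0.05 before adjustment, 2 were higher (SQSTM1 and OPTN) and 0 lower, against 2.36% and 1.05% of all genes. The study applied that threshold to DESeq2 results. Here it was applied to limma on log2(FPKM + 1), so the counts are not on the study's measure. In 7 the groups did not overlap with the higher values in sh-CEBPG#3 and in 0 with the lower, against 31.5% and 40.2% of all genes. Since the genes were selected on this contrast, nothing is read from these shares. With quantile normalization the count of 5 became 7, while the count over all 12142 genes went from 2244 to 2697. At the study's threshold GABARAPL1 was also past it, making 3, with a pseudocount of 0.1 or 0.01. With those pseudocounts 490 and 509 of all genes were higher at that threshold, against 286 in the main fit. Without the second sh-NC library the log2 fold change of GABARAPL1 was 1.10. The median log2 fold change was 0.23 over the 10 genes (range 0.01 to 1.69) and -0.04 over all genes tested.

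**Figure D2:**
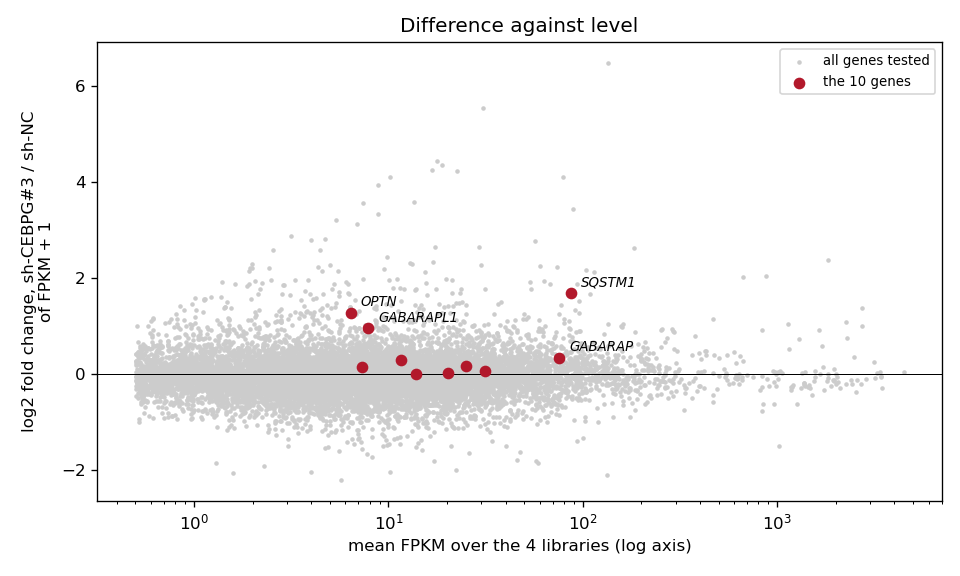
Log2 fold change of FPKM + 1, sh-CEBPG#3 against sh-NC, against the mean FPKM over the 4 libraries on a log axis, with the 12142 genes tested as grey points and the 10 genes in red. SQSTM1 lies at 1.69, OPTN at 1.28 and GABARAPL1 at 0.95, and the other 7 lie between 0.01 and 0.34.

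The genes whose pattern over the 4 libraries was most like that of SQSTM1 were found by the Euclidean distance between their log2(FPKM + 1) values, each less its sh-NC mean. They were LY6E at a distance of 0.040, IFI16 at 0.052 and JUN at 0.062. LY6E, a membrane protein gene, was at 49.6 and 53.0 FPKM in sh-NC and at 168.9 and 162.3 FPKM in sh-CEBPG#3. IFI16, a DNA sensor, was at 2.09 and 2.08 against 9.07 and 9.02 FPKM, and JUN, a subunit of AP-1, at 1.58 and 1.81 against 7.69 and 7.44 FPKM. In plain FPKM the ratios of IFI16 and JUN were larger than that of SQSTM1, because the added 1 shrinks changes at low levels.

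RefSeq windows were found for all 10 genes, 15 in all, and were searched on both strands for 8 motifs. The composite element bound by C/EBP and ATF proteins (TGATGNAAT), the C/EBP motif (TTGCNNAA), the E-box of lysosomal genes (CACGTG), the AP-1 motif (TGANTCA) and the interferon-stimulated response element (GAAA, any 2 bases, GAAA) matched in none of the 15 windows. Of 35116 windows of the same length over all genes, 0.888%, 9.05%, 6.34%, 6.57% and 3.02% held them. The kappa-B motif was found in OPTN and GABARAPL2 (9.96% of all windows), the antioxidant response core (TGACNNNGC) in CALCOCO2 and MAP1LC3B (10.9%), and the cyclic AMP response element (TGACGTCA) in GABARAPL1 (1.65%). A missing match says only that these letters are not in these windows.

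The rest of the pathway, 80 genes listed by their role with earlier results known, held calls in both directions. Of these 78 were listed and 77 tested, and 14 rose and 8 fell (limma, Benjamini-Hochberg adjusted p under 0.05). Over all genes tested 18.5% were called higher and 23.8% lower. The 14 of 77 lie near the first share and the 8 of 77 below the second. The same shares stand beside the counts by role that follow, and nothing is read from those counts. At the study's threshold in limma 0 were higher and 0 lower, with changes from -0.89 to 0.98. Pseudocounts of 0.1 and 0.01 put 2 and 3 past it as higher. Over all genes 286 were higher at it, and 490 and 509 with those pseudocounts. The median log2 fold change of the pathway genes was 0.05. Without the first sh-CEBPG#3 library it was 0.009, and without the second 0.073. With the libraries scaled to equal FPKM totals 16 pathway genes rose and 14 fell, beside 2346 and 3501 of the 12142 genes tested. With quantile normalization 21 rose and 9 fell, beside 2697 and 3054.

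Among the 3 other initiation genes tested, ATG13, a subunit of the ULK1 kinase complex, fell from 16.2 ± 0.665 to 8.29 ± 0.393 FPKM (mean ± SD, n = 2 in each group, log2 fold change -0.89, adjusted p = 2.99e-05). Thus ATG13 was lower in both sh-CEBPG#3 libraries, at 8.01 and 8.56 FPKM, while ULK1 overlapped. Of 8 genes of the class III PI3-kinase complexes only RUBCN, an inhibitor of the complex, passed the test. Its means were 1.56 FPKM in sh-NC and 2.28 FPKM in sh-CEBPG#3 (log2 fold change 0.36, adjusted p = 0.0267). RUBCN lost the call with any 1 library left out. Its transcript NM_001145642 had means of 1.51 FPKM in sh-NC and 0.0286 FPKM in sh-CEBPG#3, and NM_014687 of 0.0548 and 2.26 FPKM in that order. BECN1, the core subunit, had means of 23.0 FPKM in sh-NC and 26.9 FPKM in sh-CEBPG#3 (adjusted p = 0.0502).

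Of 9 genes that supply membrane, 3 rose and 1 fell, where 18.5% of all genes tested were called higher and 23.8% lower. A pair of related phosphoinositide-binding genes went opposite ways. WIPI1 rose from 1.67 ± 0.386 to 3.67 ± 0.299 FPKM (log2 fold change 0.81, adjusted p = 0.000739), and WIPI2 fell from 13.3 ± 0.825 to 7.53 ± 0.167 FPKM (log2 fold change -0.75, adjusted p = 0.00011). The call of WIPI2 was lost when only the most abundant transcript was used (log2 fold change -0.69, adjusted p = 0.0692). Of 10 genes that join ATG8 to lipid, 2 rose and 0 fell, beside the same shares of all genes. ATG7, the activating enzyme, rose from 6.74 ± 0.501 to 9.91 ± 1.04 FPKM (adjusted p = 0.00311), and ATG3, the conjugating enzyme, from 36.4 to 43.9 FPKM (log2 fold change 0.26, adjusted p = 0.0148). With the most abundant transcript alone the change of ATG3 was 0.10 (adjusted p = 0.365), and with the replicate block its adjusted p was 0.0686.

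MAP1LC3A, an LC3 protein outside the 10 genes, rose from 2.16 ± 0.150 to 5.25 ± 0.320 FPKM (log2 fold change 0.98, adjusted p = 6.16e-05). MAP1LC3B2, the other ATG8 gene tested, had an adjusted p of 0.639.

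The 18 other cargo receptors tested held 2 that rose and 3 that fell, against 18.5% and 23.8% of all genes tested. The 2 that rose are receptors for mitochondria. BNIP3 rose from 15.5 ± 0.693 to 29.4 ± 1.81 FPKM (log2 fold change 0.88, adjusted p = 2.55e-05) and BNIP3L from 8.51 and 9.48 FPKM to 18.9 and 17.2 FPKM (log2 fold change 0.93, adjusted p = 3.52e-05). SEC62, a receptor for the endoplasmic reticulum, fell from 12.0 ± 0.644 to 8.09 ± 0.635 FPKM (adjusted p = 0.00143). PHB2, an inner mitochondrial membrane receptor, had means of 205.8 FPKM in sh-NC and 163.2 FPKM in sh-CEBPG#3 (adjusted p = 0.00458). CCPG1, a further receptor for the endoplasmic reticulum, also fell (adjusted p = 0.0279).

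Of 14 genes of fusion with the lysosome, 3 rose and 1 fell, against 18.5% and 23.8% of all genes tested. RAB7A, the GTPase of late endosomes, rose from 83.1 ± 7.65 to 115.7 ± 0.157 FPKM (log2 fold change 0.48, adjusted p = 0.000992). STX17, the SNARE of the autophagosome, had means of 2.23 FPKM in sh-NC and 3.13 FPKM in sh-CEBPG#3 (adjusted p = 0.0316). VPS16, a tethering subunit, had means of 10.8 FPKM in sh-NC and 8.81 FPKM in sh-CEBPG#3 (adjusted p = 0.0402).

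Of the 5 transcription regulators tested, 1 rose and 2 fell, against 18.5% and 23.8% of all genes tested. TFE3 rose from 5.24 ± 0.106 to 8.40 ± 0.276 FPKM (log2 fold change 0.59, adjusted p = 0.000548), whereas TFEB, the related activator of lysosomal genes, fell from 7.11 ± 0.306 to 5.68 ± 0.149 FPKM (adjusted p = 0.0306). ZKSCAN3, a repressor of autophagy genes, had a log2 fold change of -0.32 (adjusted p = 0.0497). The calls of TFEB, ZKSCAN3, STX17, VPS16, PHB2, ATG3 and TMEM41B, a lipid scramblase of the membrane group, were each lost with at least 1 library left out.

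Of 8 partners and kinases of SQSTM1, 1 rose and 0 fell, against 18.5% and 23.8% of all genes tested. NFE2L2 was at 15.0 and 15.1 FPKM in sh-NC and at 28.7 and 26.1 FPKM in sh-CEBPG#3 and rose (log2 fold change 0.82, adjusted p = 3.78e-05). KEAP1, which binds both SQSTM1 and NFE2L2, had means of 40.7 FPKM in sh-NC and 36.5 FPKM in sh-CEBPG#3 (adjusted p = 0.159). TBK1, a kinase that phosphorylates SQSTM1 and OPTN, had means of 9.69 FPKM in sh-NC and 10.1 FPKM in sh-CEBPG#3 (adjusted p = 0.676).

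**Figure D3:**
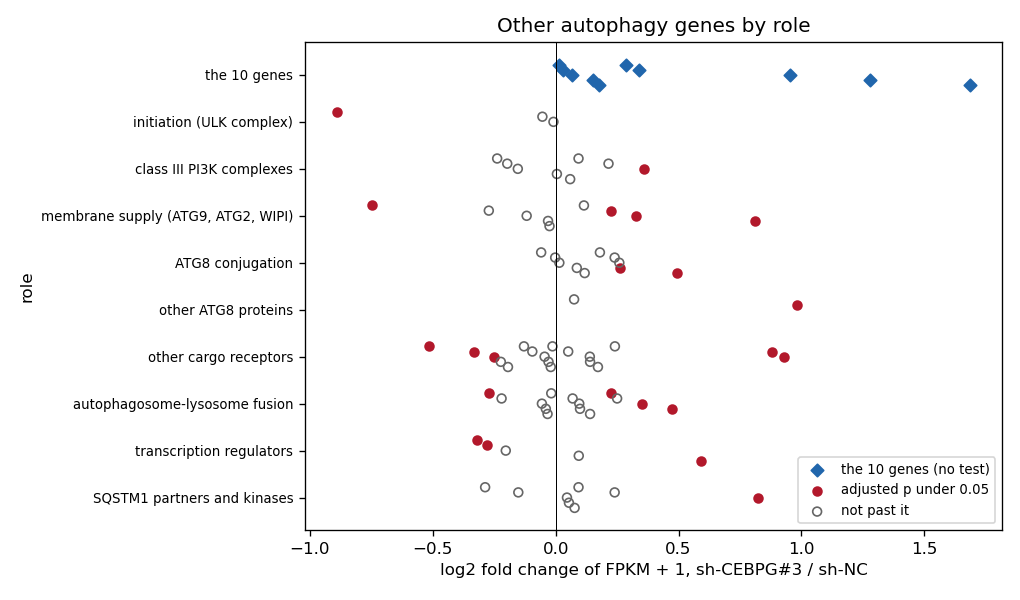
Log2 fold change of FPKM + 1, sh-CEBPG#3 against sh-NC, for the 77 other pathway genes tested, grouped by role, with 1 point per gene and filled points for those with an adjusted p under 0.05. The 10 genes stand in the top row as diamonds, with no test. The fallers reach -0.89 in ATG13 and the risers 0.98 in MAP1LC3A.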

How the data were processed

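RNA-seq of MV4-11 cells was used, with 2 libraries of sh-NC and 2 of sh-CEBPG#3 as grouped by the sample labels. The authors deposited 1 FPKM value per RefSeq transcript in every library. The submitters' processing notes name HISAT2 2.0.5 and hg38. The program that computed FPKM and the annotation release are not given in the sources used here. The values carry no counts, so the depth is unknown and no count test was run. Of 860 transcripts under 0.05 FPKM in both sh-NC libraries at most 1.28% shared 1 ratio (bins of 1%), so no steps of whole reads were seen.

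Of 28780 transcripts 199 have no value. Values were summed by symbol, with 164 transcripts without a symbol standing alone. The 12142 genes averaging 0.5 FPKM or more across libraries were fitted as log2(FPKM + 1) with limma 3.58.1 in R 4.3.3 (eBayes with a trend) and Benjamini-Hochberg adjustment over all of them. That scale understates the change of low genes. An exact two-sided permutation test of 2 against 2 cannot go below p = 0.333, so p-values rest on limma's variance model. The fit was tested on simulated data.

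The members and lists were chosen with earlier results of these data known. The genes named are the 10 members, CEBPG, the 3 genes most like SQSTM1 and, in each role, up to 2 largest increases and 2 largest decreases past the adjusted threshold. BECN1, CCPG1, KEAP1, TBK1, MAP1LC3B2 and MGAT4B fall outside that rule, and were named after their values were seen. The markers of other lineages are not reported here. Gene spans come from RefSeq, and MANE Select transcripts and the exonic bases shared with MGAT4B from GENCODE v44. Promoters come from RefSeq (GRCh38.p14) and were searched with Python 3.11.15. The alternatives tried changed the pseudocount (0.1 or 0.01), the filter (none, or 1 FPKM), the scaling (quantile or equal totals) and the libraries (each left out), added a replicate block, or kept only the most abundant transcript.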

Additional observations from a re-analysis of the deposited data

How the results depend on the processing

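Among the 10 genes, the count with an adjusted p under 0.05 and a higher level was 5. It was 7 under quantile normalization and 3 with the most abundant transcript of each gene. Over all genes, 2244 of 12142 were called higher, 2697 of 12142 under quantile normalization and 1329 of 11992 with the most abundant transcript. At the study's threshold 2 became 1 with the most abundant transcript and 3 with either other pseudocount. Over all genes, 286 were higher at it, 284 with quantile normalization and 315 with the most abundant transcript. With pseudocounts of 0.1 and 0.01 these were 490 and 509. Nothing is read from these counts. The median log2 fold change of the 10 genes was 0.16 to 0.30 with a library left out. For the other pathway genes, the 14 that rose became 21 with quantile normalization, where the count over all genes also went up. The 8 that fell became 5 without a filter, 14 with equal totals and 3 with the most abundant transcript. Over all genes, 2884 of 12142 fell, 2232 of 16490 without a filter and 3501 of 12142 with equal totals. With the most abundant transcript 1535 of 11992 fell. At the study's threshold 0 pathway genes rose, against 2 and 3 with pseudocounts of 0.1 and 0.01. There 1 rose with quantile normalization and 1 with the most abundant transcript. The median of the pathway genes was -0.009 to 0.073 with a library left out. ZKSCAN3 turned to 0.57 with the most abundant transcript (adjusted p = 0.474). With the replicate number as a block 5 pathway genes fell, beside 2673 of 12142 over all genes. Same-numbered libraries share only a number (correlation of their deviations 0.0606 over 12142 genes). A lone library was assumed to vary like the other group. The causes of these moves were not tested. SQSTM1 stayed between 1.64 and 1.93 under all alternatives, and OPTN between 0.90 and 1.51. The depth of the libraries is unknown, so no limit from counting can be given.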
